A study of Mus musculus with 11 samples.

Results

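The adrenergic receptor family was followed through the RNA-Seq counts of cerebellar granule cell precursors (GCps) from postnatal day 7 mice. Its 8 members here, of 38924 genes in the files, are the genes named Adra1 (Adra1a, Adra1b and Adra1d), Adra2 (Adra2a, Adra2b and Adra2c) and Adrb (Adrb1 and Adrb3). The family was chosen because Adra2c was higher in the conditional knockout, so the values of the members in that comparison are a description and carry no test. GCps were purified on Percoll from cerebella pooled by genotype, after removal of lobules IX and X, in mice on a C57Bl/6J background. The 2 control libraries are labelled Chd7flox/+ (the extraction notes in the labels give both alleles as floxed), and the 2 conditional knockout (cko) libraries are Math1cre;Chd7flox/flox, which lack the chromatin remodeller CHD7 in cells where Cre driven by Math1 was active. Math1-Cre acts in the granule lineage and spares posterior lobules, which limits the model to the cells in which the driver is active. The question was which receptor genes of this family differed between cko and control GCps. Nothing in the labels says whether the 2 libraries of a genotype came from separate pools. In cko replicates 1 and 2 the X-inactivation transcript Xist had 61118 and 7 counts. The Y-linked Ddx3y had 0 and 4196 counts, so the 2 cko libraries held RNA of different animals. The 2 control libraries differed by more than counting error, at a chi-square of 49.9 per degree of freedom over the tested genes. That spread may still be technical, for example from library preparation, which was not tested.

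Adrenergic receptors are G protein-coupled receptors for noradrenaline and adrenaline, which reach the cerebellum mainly through noradrenergic fibres of the locus coeruleus. The Adra1 receptors couple to Gq and phospholipase C, the Adra2 receptors couple to the inhibitory Gi/o proteins and lower cyclic AMP, and the Adrb receptors couple to Gs and raise it. Adra2 receptors are also known as presynaptic brakes on transmitter release.

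The libraries held between 61836588 and 77346481 counts assigned to genes, and a count of 0 allows at most 3 counts, or 0.0389 to 0.0497 CPM (counts per 1000000 counts in genes, with TMM-scaled library sizes). The preparations carried GCp markers, with 13 of 13 listed genes tested and a summed level between 7139 and 7881 CPM in every library. Cko replicate 1 stood apart in the X-inactivation transcript Xist, at 793 CPM against 0.114 to 0.548 CPM elsewhere, and in the Y-linked Ddx3y, which had 0 counts there and 63.7 to 69.1 CPM elsewhere. Values without a library are therefore given where leaving it out ended a call or moved a value of a member by over 1.5 times. Chd7 itself read 322 and 319 CPM in the control and 393 and 355 CPM in the cko libraries, and a count over the whole gene does not check the deletion of floxed exons.

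Adra2c, which encodes an inhibitory receptor of the Adra2 group, was the member with the highest level per length in both genotypes. It is a gene of 1 exon, on mouse chromosome 5 from 35278319 to 35281763 on the plus strand of GRCm38 (identifier ENSMUSG00000045318). It had 348 and 299 counts in the control libraries and 1699 and 1268 in the cko libraries. Scaled to library size this was 4.54 and 4.96 CPM in control and 22.0 and 20.6 CPM in cko, so the genotypes were far apart and the libraries within each lay close together. The means were 4.75 ± 0.291 CPM (SD, n = 2) and 21.3 ± 1.00 CPM (SD, n = 2), a ratio of 4.49. The fitted difference was 2.17 on the log2 scale (standard error 0.14, 95% interval 1.83 to 2.51). It ran from 2.10 to 2.23 when each library was left out in turn. In bulk samples a larger share of cells that express a gene and more RNA per cell cannot be told apart, and that holds for every value here.

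The nearest relatives of Adra2c are Adra2a and Adra2b. The stretches around the longest identical run that Adra2c shares with each in coding sequence are shown. Reads from such stretches could in principle be assigned to the wrong gene. The run identical in both genes of a pair is in capitals with 15 bases on each side. All 4 lie in coding exons, on the plus strand of GRCm38, and are written 5′ to 3′. The first pair shares 26 bases and matches at 46 of 56 positions, at chr5:35280342-35280397 for Adra2c and chr19:54046662-54046717 for Adra2a.
Adra2c: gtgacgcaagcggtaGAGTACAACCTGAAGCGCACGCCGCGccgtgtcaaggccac
Adra2a: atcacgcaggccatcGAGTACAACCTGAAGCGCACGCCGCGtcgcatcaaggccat
The other pair shares 23 bases and matches at 48 of 53 positions, at chr5:35280282-35280334 for Adra2c and chr2:127363859-127363911 for Adra2b.
Adra2c: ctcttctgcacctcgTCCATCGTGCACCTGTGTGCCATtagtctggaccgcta
Adra2b: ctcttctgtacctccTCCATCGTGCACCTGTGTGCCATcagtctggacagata
No stretch of 30 or of 50 bases of an Adra2c or Adra2a transcript occurred in a transcript of any other annotated gene. No exon of another gene overlapped those of Adra2c on either strand.

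Adra2a, the other Adra2 member with measurable counts, is also a gene of 1 exon (chromosome 19, 54044151 to 54048982, plus strand). It had 120 and 73 counts in control and 125 and 97 in cko, or 1.57 and 1.21 CPM against 1.62 and 1.58 CPM. Both cko libraries lay above both control libraries, by a margin smaller than the gap between the control libraries. The fitted log2 difference was 0.20 (standard error 0.25, 95% interval -0.40 to 0.81). It was 0.40 without control replicate 1 and 0.03 without control replicate 2.

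Adra2b (chromosome 2, 127363208 to 127367221, plus strand) had too few counts to enter the test, with 2 and 4 in control and 10 and 7 in cko. Summed over libraries these were 6 counts (exact Poisson 95% interval 2.20 to 13.1) against 17 (9.90 to 27.2), intervals that overlap and cover counting error only. Its level did not exceed 0.130 CPM in any library.

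The Adra1 members, which act through Gq and phospholipase C, were all detected at low levels and none passed the threshold. Adra1a (chromosome 14, 66635251 to 66771168, plus strand) read 0.823 and 0.630 CPM in control and 0.869 and 0.797 CPM in cko, from 38 to 67 counts. Its genotypes overlapped, with a fitted log2 difference of 0.19 (95% interval -0.52 to 0.90), which was 0.40 without control replicate 1 and 0.02 without control replicate 2. Adra1b (chromosome 11, 43774606 to 43901210, minus strand) also overlapped, at 0.366 and 0.381 CPM in control and 0.376 and 0.260 CPM in cko, with a log2 difference of -0.22 (95% interval -1.13 to 0.70). Without cko replicate 1 that difference was -0.51, and without cko replicate 2 it was 0.01, so its sign rests on cko replicate 2.

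Adra1d (chromosome 2, 131545850 to 131562283, minus strand) was the one Adra1 gene whose libraries were separate, at 0.339 and 0.249 CPM in control and 0.454 and 0.455 CPM in cko. These values rest on 26 and 15 counts against 35 and 28, and the log2 difference of 0.62 had a 95% interval of -0.26 to 1.49. The opposite strand carries the annotated gene Gm14285 over 7.74% of the exonic bases of Adra1d. Whether the counting used strand is not known from the sources at hand, and without strand the reads of this pair cannot be told apart in that stretch.

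Adrb1, the Gs-coupled receptor best known from the heart and also present in brain (chromosome 19, 56722199 to 56733113, plus strand), was the one member with both cko libraries below both control libraries. It had 48 and 47 counts in control and 47 and 30 in cko, or 0.627 and 0.779 CPM against 0.610 and 0.488 CPM. The nearest libraries of the genotypes were almost level. With unscaled library totals they overlapped, at 0.184 and 0.225 CPM per kb of exon in control and 0.189 and 0.142 in cko. The log2 difference of -0.35 had a 95% interval of -1.11 to 0.42, and it was -0.50 without control replicate 1, -0.19 without control replicate 2, -0.51 without cko replicate 1 and -0.20 without cko replicate 2. Adrb3, the receptor of adipose tissue (chromosome 8, 27225776 to 27250616, minus strand), had 1 and 0 counts in control and 1 and 1 in cko, at or under the floor everywhere.

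**Figure D1:**
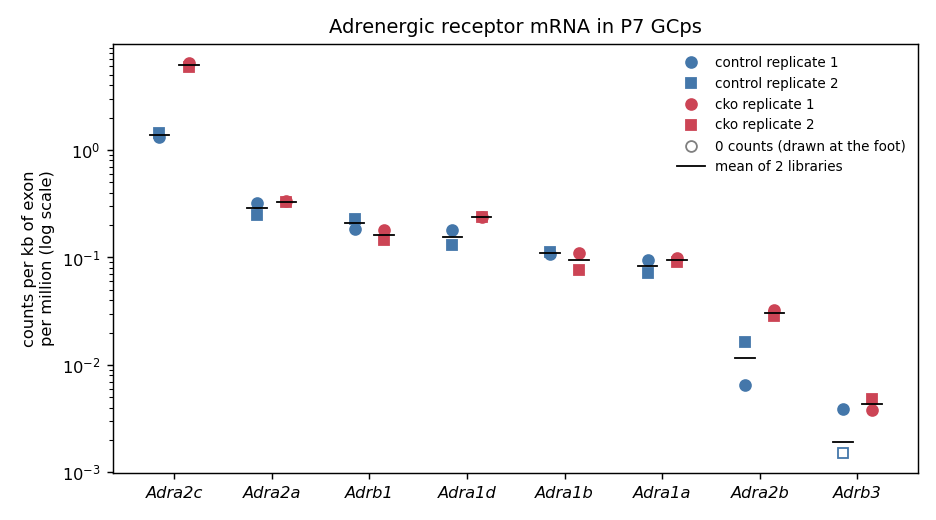
Level per length of each of the 8 adrenergic receptor genes, in CPM per kb of exon on a log axis, with 1 point for each control (blue) and cko (red) library, lines at the means of 2 libraries and an open symbol at the foot for a count of 0. Adra2c goes from a mean of 1.38 in control to 6.19 in cko, while the other 7 genes lie at or below 0.331 on average in both genotypes.

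Over the whole family, 6 of 8 genes had enough counts for the test across 16436 genes, and 1 of these 6, Adra2c, was past the adjusted threshold of 0.05, in the higher direction, while 0 were lower. Among all genes tested 1.58% were called, with 0.809% higher and 0.773% lower, and nothing is read from the comparison because the family was chosen on this contrast. The median log2 difference of the 6 was 0.20, beside -0.001 for all genes. The 4 tested members whose libraries did not overlap between genotypes (Adra1d, Adra2a and Adra2c above, Adrb1 below, though not with unscaled totals) compare with 43.9% of all genes tested, with 22.7% above and 21.2% below. The count of 1 called member was the same under every alternative setting that kept all libraries, which again is a description. For the 5 members that did not pass, the 95% intervals reached from -1.13 to 1.49 on the log2 scale, so differences of that size remain possible at this depth.

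**Figure D2:**
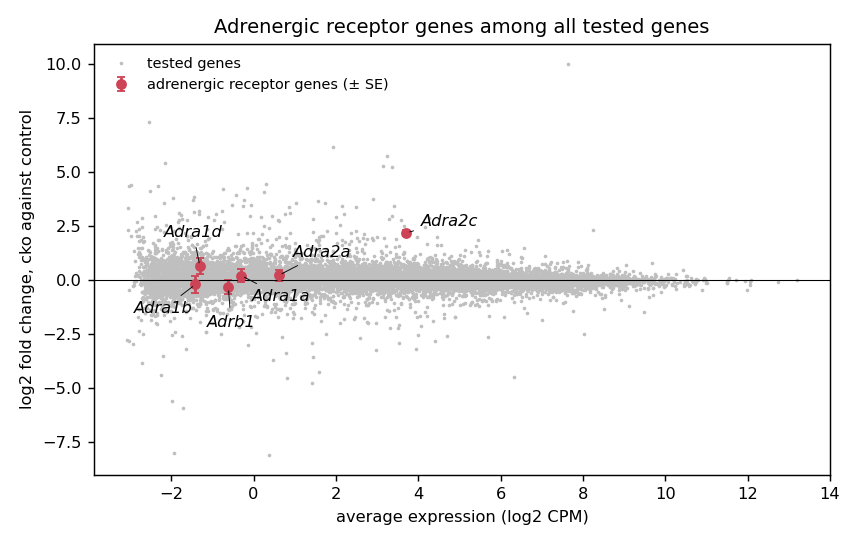
Log2 difference (cko minus control) of the 16436 tested genes against their mean log2 CPM, with the 6 tested adrenergic receptor genes in red with bars of ± 1 standard error. Adra2c lies at 2.17 and the other members between -0.35 and 0.62.

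The receptors were then set against each other as levels per length, as CPM per kb of exon. In the control libraries the order was Adra2c (1.38 ± 0.0846, SD, n = 2), Adra2a (0.287), Adrb1 (0.208), Adra1d (0.155), Adra1b (0.110), Adra1a (0.0832), Adra2b (0.0115) and Adrb3 (0.00193). No neighbours in that order overlapped between libraries. The values from Adrb1 down rest on at most 101 counts over both libraries, and the 41 control counts of Adra1d alone have an exact Poisson interval of 29.4 to 55.6. In the cko the order was Adra2c (6.19 ± 0.290, SD, n = 2), Adra2a (0.331), Adra1d (0.239), Adrb1 (0.162), Adra1a (0.0954), Adra1b (0.0941), Adra2b (0.0303) and Adrb3 (0.00433). There Adra1a and Adra1b overlapped and could not be ranked.

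The place of Adra1a depends on the length used, since its annotated transcripts differ widely. With the length of its longest transcript in place of all its exons it read 0.170 in control and 0.195 in cko and ranked 4 in both. The annotated exons of Adra1d hold 1899 bases, of which 1689 are coding, so they contain little untranslated sequence and its level per length is less comparable with the rest.

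Adra2c made up most of the receptor transcripts of the family in every library. Of the summed level per length of the 8 genes it supplied 59.4% and 63.9% in control and 86.5% and 86.8% in cko. The sum of the other 7 genes was 0.901 and 0.813 in control and 1.00 and 0.912 in cko, so the 4 libraries lay between 0.813 and 1.00. The level of Adra2c relative to Adra2a was 4.80 to 1 in control and 18.7 to 1 in cko.

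The genes whose profile over the 4 libraries lay nearest to that of Adra2c were found from the root mean square difference of centred log2 CPM values. They were Kcnk13 (0.0995), which encodes a two-pore domain potassium channel, Hspb2 (0.119), a small heat shock protein, Stac2 (0.140), Dync1i1 (0.151), a dynein intermediate chain, and Galnt15 (0.154), a glycosyltransferase. Galnt15 went from a mean of 4.70 ± 0.251 CPM (SD, n = 2) in control to 17.4 ± 0.794 CPM (SD, n = 2) in cko. Kcnk13 read 1.93 and 1.77 CPM against 9.01 and 7.67 CPM. Hspb2 rests on few counts, 6 and 5 in control and 31 and 29 in cko, and did not pass the threshold. Stac2 had 26 and 17 counts in control and 116 and 81 in cko. With 4 libraries in 2 genotypes such likeness amounts to a similar difference between genotypes.

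Other genes of adrenergic signalling were described from 8 lists of 130 genes, of which 111 were tested. Of these, 1 was called higher and 2 were called lower, or 2.70% beside 1.58% of all genes, and their median log2 difference was 0.03. The number is fragile. It was 1 without control replicate 1, 1 without control replicate 2, 2 without cko replicate 1 and 12 without cko replicate 2.

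**Figure D3:**
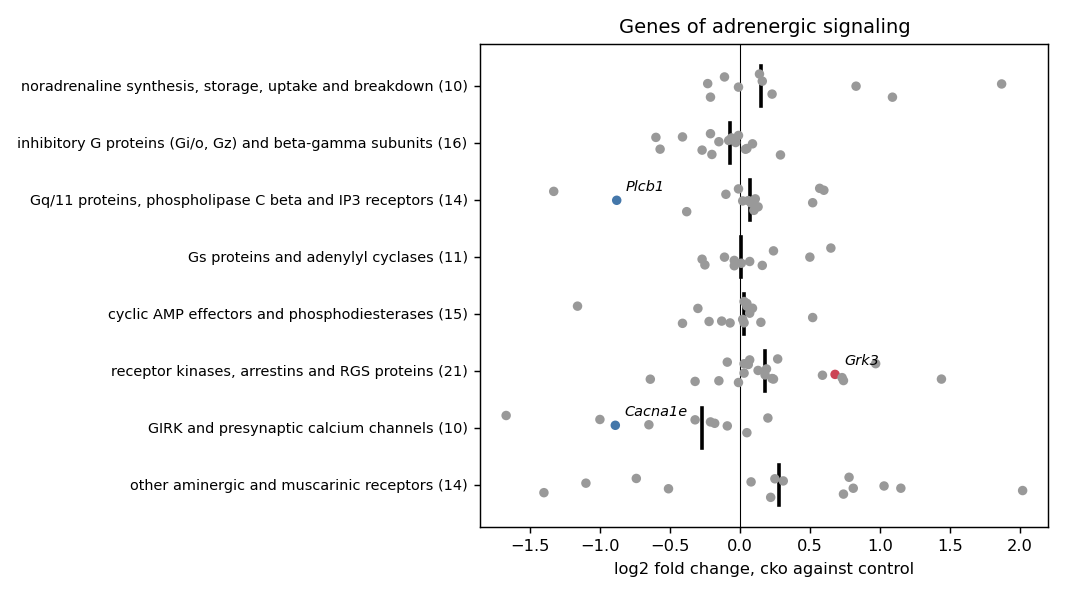
Log2 difference (cko minus control) of each tested gene in the 8 lists of signalling genes, with the number tested in brackets, vertical strokes at the medians and called genes in red (higher) or blue (lower). The 3 called pathway genes are Grk3 at 0.68, Plcb1 at -0.88 and Cacna1e at -0.89.

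Among genes that supply and remove noradrenaline, 0 of 10 tested passed and the median log2 difference was 0.15. By edgeR, 2 of the 10 had an unadjusted p under 0.05, beside 13.6% of all genes tested (2231 of 16436). Highest in CPM was Maoa, the monoamine oxidase that breaks noradrenaline down, at 48.6 and 48.0 CPM in control and 54.1 and 59.4 CPM in cko (log2 difference 0.23, edgeR adjusted p = 0.388). The noradrenaline transporter Slc6a2, named here after its values were seen, had 18 and 8 counts in control and 58 and 38 in cko (log2 difference 1.87, standard error 0.41, edgeR adjusted p = 0.0950). Dbh, the enzyme that makes noradrenaline, had 5 and 4 counts in control and 1 and 0 in cko, and Pnmt, which makes adrenaline, had 0 in every library.

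Downstream of the Adra2 receptors, 0 of 16 tested genes for Gi/o, Gz and the beta-gamma subunits passed, with a median of -0.07. By edgeR, 3 of the 16 had an unadjusted p under 0.05, beside 13.6% of all genes. The beta subunit gene Gnb1 led the list in level, at 868 and 864 CPM in control and 724 and 832 CPM in cko (log2 difference -0.15, edgeR adjusted p = 0.664). Of 10 tested genes for GIRK and presynaptic calcium channels, the targets on which Gi/o beta-gamma subunits act, 1 was lower and the median was -0.27. By edgeR, 4 of the 10 had an unadjusted p under 0.05, beside 13.6% of all genes, and 2 had a difference above 0. The called gene was Cacna1e, a pore subunit of R-type calcium channels. It fell from 63.6 and 52.3 CPM to 30.2 and 32.3 CPM (log2 difference -0.89, standard error 0.13, edgeR adjusted p = 0.0344). It no longer passed without control replicate 1 (0.0582) or cko replicate 1 (0.0611).

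Downstream of the Adra1 receptors, 1 of 14 tested genes for Gq/11 proteins, phospholipase C beta and inositol trisphosphate receptors was lower, with a median of 0.07. By edgeR, 3 of the 14 had an unadjusted p under 0.05, beside 13.6% of all genes. The called gene was Plcb1, a phospholipase C activated by Gq. It read 73.5 and 81.2 CPM in control and 37.8 and 46.4 CPM in cko (log2 difference -0.88, standard error 0.13, edgeR adjusted p = 0.0357). The call was lost without control replicate 2 (0.144) or cko replicate 1 (0.0515).

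For the Gs arm used by Adrb1, 0 of 11 tested Gs and adenylyl cyclase genes and 0 of 15 tested genes for cyclic AMP effectors (protein kinase A, its anchoring proteins, the exchange factors Rapgef3 and Rapgef4, CREB factors and phosphodiesterases) passed, with medians of 0.01 and 0.03. By edgeR, 1 of the 11 and 3 of the 15 had an unadjusted p under 0.05, beside 13.6% of all genes. Gnas, the Gs alpha subunit, read 434 and 392 CPM in control and 404 and 398 CPM in cko (log2 difference -0.04, edgeR adjusted p = 0.918). Prkar1a, a regulatory subunit of protein kinase A, read 462 and 450 CPM against 371 and 415 CPM (log2 difference -0.22, edgeR adjusted p = 0.451).

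Receptor kinases, arrestins and RGS proteins end or dampen receptor signalling, and 1 of 21 tested was higher, with a median of 0.18. By edgeR, 5 of the 21 had an unadjusted p under 0.05, beside 13.6% of all genes. The called gene was Grk3, a kinase that phosphorylates activated receptors including those of the Adra2 and Adrb groups. It read 55.6 and 53.8 CPM in control and 93.0 and 82.0 CPM in cko (log2 difference 0.68, standard error 0.10, edgeR adjusted p = 0.0370). It no longer passed without control replicate 1 (0.0647), control replicate 2 (0.179) or cko replicate 1 (0.0682).

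Receptors for other amines and for acetylcholine gave a comparison with related receptor genes. Of 27 listed, 14 were tested, 0 passed, and 5 had 0 counts in every library. Their median log2 difference was 0.28, and by edgeR 5 of the 14 had an unadjusted p under 0.05, beside 13.6% of all genes. Highest in CPM was the muscarinic receptor Chrm3, at 4.91 and 4.52 CPM in control and 2.30 and 3.38 CPM in cko (log2 difference -0.74, edgeR adjusted p = 0.238).

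Around Adra2c on chromosome 5, the 3 nearest protein-coding genes on each side lay 107.3 to 274.4 kb away, and 4 of these 6 were tested. Lrpap1, a chaperone for lipoprotein receptors 172.6 kb away, was higher in cko, at 112 and 107 CPM in control and 167 and 173 CPM in cko (log2 difference 0.64, standard error 0.09, edgeR adjusted p = 0.0348). It no longer passed without control replicate 1 (0.0868) or control replicate 2 (0.191). Beyond it, Dok7, an adaptor of the muscle synapse, read 0.770 and 0.448 CPM in control and 1.82 and 2.75 CPM in cko (log2 difference 1.89, standard error 0.36, edgeR adjusted p = 0.0628). It passed under 5 of the 10 alternatives.

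On the other side, Cpz (edgeR adjusted p = 0.790) and Trmt44 (edgeR adjusted p = 0.983) had log2 differences of 0.50 and 0.02. Hgfac and Hmx1 had too few counts to be tested. Of 24 protein-coding genes that start within 1000 kb of Adra2c, 21 were tested and 1, Lrpap1, was called (1 of 21, beside 1.58% of all genes), with a median log2 difference of 0.08.

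**Figure D4:**
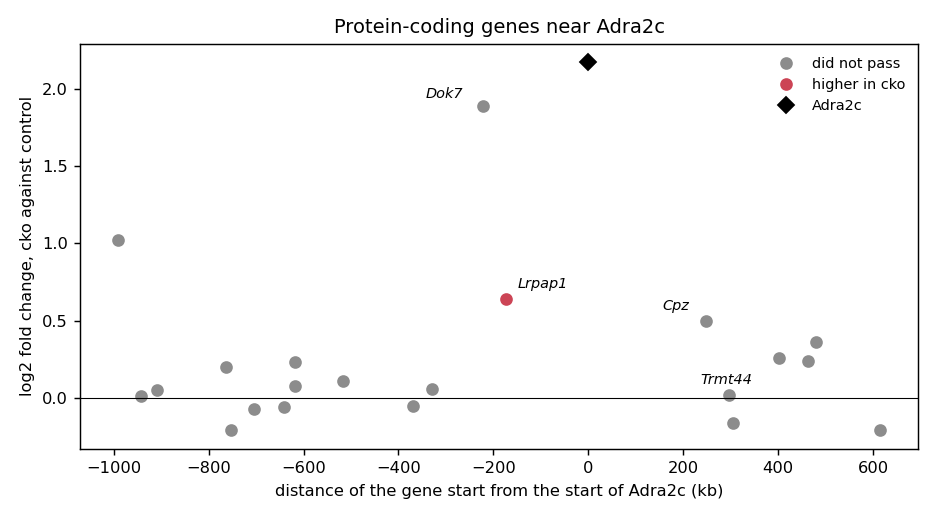
Log2 difference (cko minus control) of tested protein-coding genes by distance in kb of their start from the start of Adra2c (diamond), with the called gene in red. Adra2c stands at 2.17, Dok7 at 1.89 and Lrpap1 at 0.64, and the median of the 21 surrounding genes is 0.08.

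Windows at the RefSeq starts of the Adra2 genes differed in base composition. In the RefSeq table (GRCm38.p6, from 250 bases before to 50 bases after a gene start) 5 members were matched, namely Adra1b, Adra2a, Adra2b, Adra2c and Adrb1, and Adra1a, Adra1d and Adrb3 are named only. The Adra2c window held 7 CG dinucleotides and 51.3% G or C, where the median of all 32851 windows is 7 and 51.4% of windows hold as few or fewer. RefSeq starts differ from the gene starts given above. The Adra2c window (chr5:35278316-35278615) lies almost wholly inside the gene as given above, and the Adra2a window (chr19:54045009-54045308) wholly inside. The Adra2b window (chr2:127362929-127363228) lies mostly before its gene, and the Adrb1 window (chr19:56721867-56722166) wholly before, so unlike places are compared. The windows of Adra2a, Adra2b and Adrb1 held 28, 29 and 28 CG dinucleotides. Adra1b has a pair of windows, with 28 and 3. This is a description of sequence letters and was not related to any measurement.

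Markers of other cells were read beside Adra2c. The skeletal muscle list summed to 9.35 and 7.03 CPM in control and 34.1 and 69.8 CPM in cko, and 4 of its 10 tested genes were called higher (Myh3, Tnnt3, Ckm and Myog), with a median log2 difference of 2.66. Myh3, the embryonic myosin and highest of the list in CPM, read 2.98 and 1.97 CPM in control and 12.1 and 22.3 CPM in cko. Muscle markers were thus highest in cko replicate 2. Their part in the Adra2c difference, and in that of Dok7, was not tested.

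Endothelial markers summed to 278 and 241 CPM in control and 361 and 372 CPM in cko, with 0 of 10 higher and 1 lower (Slco1a4), 9 of 10 with a difference above 0, 8 of 10 with an unadjusted edgeR p under 0.05 (beside 13.6% of all genes) and a median of 0.47. Mural cell markers summed to 191 and 181 CPM against 197 and 256 CPM, with none of 11 called by edgeR and 2 with an unadjusted p under 0.05. Astrocyte and Bergmann glia markers were at 948 and 1021 CPM against 815 and 834 CPM, and none of 10 was called by edgeR, with 4 at an unadjusted p under 0.05. Their part in the receptor values was not tested.

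Of the markers of noradrenergic neurons, which carry Adra2 autoreceptors, 3 were tested and 0 were called by edgeR, with 1 (Slc6a2) at an unadjusted p under 0.05. All 3 had a log2 difference above 0, at 1.87 for Slc6a2, 0.83 for Th and 0.16 for Slc18a2, with a median of 0.83. Their transcription factor Phox2a had 2 and 1 counts in control and 1 and 0 in cko, at or under the floor in every library, and Dbh was at 5, 4, 1 and 0 counts as given above. Of the other lists, the GCp list had 1 gene lower (Nhlh1) and the oligodendrocyte list 1 higher (Olig2). No gene was called in the other 8 of the 12 marker lists.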

How the data were processed

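Purified P7 GCps were profiled by RNA-Seq (Illumina TruSeq) in 2 control and 2 cko libraries. Per the labels and the study's methods, the authors used Trim Galore 0.4.1 for trimming, TopHat2 2.0.14 for alignment to mm10 and HTSeq 0.6.1p1 for counting over Ensembl 75 genes (intersection-strict, alignments with quality under 3 skipped). The deposited values are raw counts per gene, and the rows that name no gene were left out. No strand setting is given in the sources used here.

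From these counts, genes were filtered with filterByExpr, scaled with TMM and tested with edgeR 4.0.16 (quasi-likelihood, robust, two-sided, R 4.3.3), with Benjamini-Hochberg adjustment over 16436 genes at 0.05. DESeq2 1.42.0, other filters and scalings, a replicate block and the omission of each library were alternatives. Fold changes from edgeR are log2 values. CPM use TMM-scaled library sizes. An exact permutation test of 2 against 2 cannot fall below 0.333. Exonic lengths, positions and overlaps came from GENCODE release M21 on GRCm38, which matched 37607 of 38924 genes. The fit was tested on simulated data.

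The members, the pathway and the marker lists were chosen with earlier results of these data known. Named genes are the 8 members, up to 4 called genes per pathway list with the lowest adjusted p (or the one highest in CPM), 3 neighbours on each side of Adra2c, and 5 genes with the nearest profile. Marker lists are given by summed levels, with called genes. The window of 1000 kb was added later. The ATAC-Seq and ChIP-Seq files were not used.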

Additional observations from a re-analysis of the deposited data

How the results depend on the processing

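The log2 difference of Adra2c stayed between 2.10 and 2.23 under all 10 alternatives. The number of called receptor genes stayed at 1 under every alternative that kept all libraries. With a CPM of at least 1 in 2 libraries as the filter, only 2 members were tested. Because the family was chosen on this contrast in these same libraries, this describes the values and gives no support to the difference. Counts over many genes moved more. All genes called numbered 260, against 727 with no filter on low counts, 891 with DESeq2, 1010 with the replicate block and 83 to 602 with a library left out (83 without control replicate 2, 602 without cko replicate 2). Pathway genes called numbered 3, against 13 with no filter, 13 with DESeq2, 16 with the replicate block and 1 to 12 with a library left out. Neighbours of Adra2c called numbered 1, against 2 with no filter, 2 with DESeq2, 2 with the replicate block and 0 to 2 with a library left out. The cause of these moves was not tested. Dok7 passed with no filter (adjusted p = 0.00274), DESeq2 (0.00202), the replicate block (0.0366), without control replicate 1 (0.0323) and without cko replicate 1 (0.0468). Replicate numbers do not establish a pairing here, since deviations of same-numbered samples correlated at 0.187 over only 2 pairs. Per length, the longest transcript moved Adra1a to 0.170 in control and 0.195 in cko and Adrb3 in cko to 0.00523, and unscaled totals moved Adra1d in cko to 0.244. For Adra1b, Adra1d, Adrb1 and Adra2b, at most 48 counts per library limit what could be seen.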
